A study of Mus musculus with 12 samples.

Results

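The 37 genes described here carry fatty acids into muscle cells and oxidise them, or control that process. They were chosen by gene symbol, a rule that uses no measured value. The list was drawn up with earlier results of these data known. It runs from uptake through activation, the carnitine step, the mitochondrial oxidation spiral and the peroxisome to the regulators. Of the 37 listed genes, 35 were measured, each by the brightest of its probes (mean over the 12 arrays) among the 46133 probes of the array, which carry 17658 gene symbols. Acsl1 and Ucp2 were not analysed here, because no probe carried either symbol. The RNA came from heart and from the extensor digitorum longus, a fast muscle of the leg, of male C57BL/6 mice aged 18 weeks. Of these mice, 3 had eaten a diet with 2% carbonyl iron for 6 weeks and 3 the control chow with 0.02% iron, and every mouse gave 1 heart and 1 skeletal muscle sample, each hybridised to its own array. The labels name no genetic change in these mice. The diets were compared within each tissue, and the tissues with each other over both diets.

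Long-chain fatty acids enter the muscle cell, are bound to carrier proteins, activated to acyl-CoA and passed into the mitochondrion as carnitine esters. There a repeated spiral of dehydrogenation, hydration, a second dehydrogenation and thiolysis cuts off acetyl-CoA, and the electrons go to the respiratory chain. The heart draws most of its ATP from this route, while fast muscle fibres rely more on glycolysis, and nuclear receptors of the PPAR family with the coactivator PGC-1alpha switch on many of these genes.

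All values are quantile-normalised signals, and differences are on the log2 scale, where 1 is a doubling of the signal. A probe's signal also depends on its sequence, so signals of different genes were not set against each other. Array medians before normalisation lay between 183 and 337 and followed the replicate number, with 281 to 337 for the 4 arrays numbered 1, 251 to 282.5 for those numbered 2 and 183 to 193 for those numbered 3. The tissue labels held: 7 ventricular markers, such as Myl2 and Tnnt2, were higher in heart, and 8 fast-fibre markers, such as Myh4 and Pvalb, were higher in skeletal muscle, with no overlap between arrays. On the heart arrays those 8 fast-fibre genes averaged 7.9 to 8.003 on the log2 scale, the level that probes of silent genes give here. Probes with a mean signal of at most 1.5 times the median of all probes (382.1 against 254.7) are called dim below. They were 10 of the 35 members, Acsl3, Acsl6, Cd36, Cpt1a, Hadha, Eci2, Acot1, Acot2, Ppara and Ucp3, and whether a dim probe reported its transcript was not tested. In bulk tissue, more cells of a type and more RNA per cell cannot be told apart.

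Among the heart arrays, control replicate 2 and high-iron replicate 1 stood apart, with median correlations of 0.936 and 0.93 with the other heart arrays against 0.985 to 0.986 for the rest. The labels do not single them out, and the study's methods mention a hybridisation problem on 1 control and 1 high-iron heart array without giving the replicate. Some probes failed there and the paper left them out for those arrays, while no probe was left out here. Brown adipocyte markers (4 genes, Ucp1, Cidea, Elovl3 and Cox8b, of which 2 were dim) averaged 11.24 on control replicate 2 and 10.02 to 10.2 on the other heart arrays. Of these 4 genes, 3 had their highest heart value on control replicate 2. Atrial markers (5 genes) averaged 11.46 on high-iron replicate 1 against 8.28 to 9.42 on the others, and 3 seminal vesicle markers 10.05 against 8.01 to 8.13. Results of the members in heart are therefore given with and without this pair, and those of related genes with all heart arrays only.

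The tissues differed for most of the genes. At an adjusted p under 0.05 (limma, Benjamini-Hochberg over all probes), 25 of the 35 members were higher in heart, 3 were lower (Acsl4, Acsl6 and Ppard) and 7 did not pass (Acsl3, Cpt1a, Crat, Hadha, Eci2, Acot1 and Ucp3). Of all probes, 7.61% were higher and 5.76% lower in heart by the same test. Most of the array's probes are dim, so the closer background is the 6584 probes above the dim limit, of which 33.9% were higher and 26.3% lower. Of the 25 members above that limit, 22 were higher, 2 lower and 1 did not pass. The median log2 difference of the 35 members was 0.527, and 0.832 for the 25 brighter ones, beside -0.000354 for all probes. For 21 members every heart array exceeded every skeletal muscle array, and for 2 every heart array lay lower. Of all 46133 probes, 2482 and 1936 were separated in these ways, and of the 6584 brighter ones 1753 and 1375. Among the 25 members above the dim limit the counts were 19 and 1. Without the 2 heart arrays that stood apart, 28 members were again past the threshold, 25 higher and 3 lower, with a median of 0.521.

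**Figure D1:**
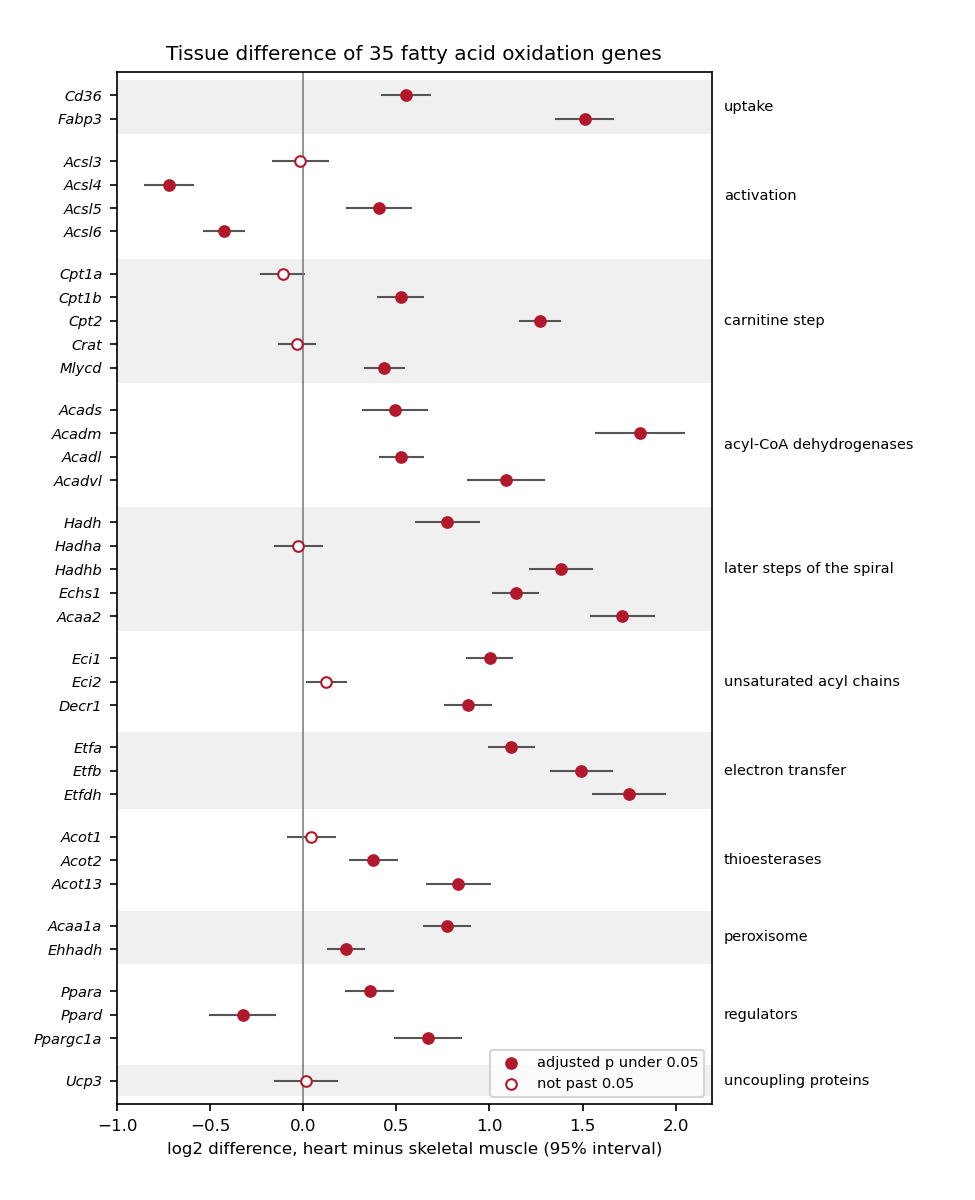
Log2 difference between heart and skeletal muscle (x axis) for the 35 measured genes (y axis), grouped by role, with 95% confidence intervals from the fit over 12 arrays. Filled points passed an adjusted p of 0.05. Acadm, Etfdh and Acaa2 lie furthest to the right at 1.81, 1.75 and 1.71, and Acsl4 furthest to the left at -0.72.

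Since so many of these genes moved together between the tissues, the 300 bases around their annotated start sites (250 before and 50 after) were searched for the direct repeat that PPAR-RXR pairs bind, AGGTCA, 1 base of any kind, then AGGTCA, on both strands. RefSeq windows of build GRCm38.p6 were found for 30 of the 35 members (32 windows), with none for Acaa2, Acot13, Cpt1b, Crat and Decr1. The exact repeat stood in 0 of the 32 windows and in 0.0396% of 32851 mouse windows. With up to 1 mismatch it stood in 0 (0.554% of all windows), and with up to 2 mismatches in 4 (12.5% against 3.86%). At shares of 0.0396% and 0.554%, a count of 0 is likely in any 32 windows, so these zeros say little about the members. A single AGGTCA, which every exact repeat contains, occurred in 7 windows (21.9% against 16.3%). TCAAGGTCA, the site of the oestrogen-related receptors, occurred in 1 (3.12% against 0.423%), a window of Acsl6, which was lower in heart. Counts of 4, 7 and 1 among 32 windows are small, and whether they exceed the shares of all windows was not tested. The windows of the members were richer in G and C, with a median of 60.7% against 52.7%. The 4 windows with the repeat at up to 2 mismatches are printed because they hold the closest matches among the members. They belong to Cd36, Echs1, Etfa and Ucp3, of which the first 3 were higher in heart and Ucp3 did not pass the test. The capitals mark the match, which in Cd36 and Etfa reads on the opposite strand. The windows lie at chr5:17835847-17836146 on the minus strand, chr7:140116372-140116671 on the minus strand, chr9:55512194-55512493 on the minus strand and chr7:100472741-100473040 on the plus strand. Each is written 5′ to 3′ along its gene, and the match starts 63, 83, 77 and 51 bases before the annotated start site, in that order.
Cd36: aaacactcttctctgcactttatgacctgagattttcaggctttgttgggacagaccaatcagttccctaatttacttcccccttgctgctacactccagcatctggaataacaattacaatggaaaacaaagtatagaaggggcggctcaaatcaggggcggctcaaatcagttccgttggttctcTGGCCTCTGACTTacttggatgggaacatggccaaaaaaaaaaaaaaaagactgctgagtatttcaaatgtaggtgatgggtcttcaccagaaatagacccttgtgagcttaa
Echs1: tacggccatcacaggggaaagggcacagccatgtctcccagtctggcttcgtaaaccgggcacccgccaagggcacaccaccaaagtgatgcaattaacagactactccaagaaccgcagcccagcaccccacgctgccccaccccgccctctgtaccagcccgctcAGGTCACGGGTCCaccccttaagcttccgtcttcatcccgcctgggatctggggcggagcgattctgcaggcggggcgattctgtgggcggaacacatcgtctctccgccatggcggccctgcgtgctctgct
Etfa: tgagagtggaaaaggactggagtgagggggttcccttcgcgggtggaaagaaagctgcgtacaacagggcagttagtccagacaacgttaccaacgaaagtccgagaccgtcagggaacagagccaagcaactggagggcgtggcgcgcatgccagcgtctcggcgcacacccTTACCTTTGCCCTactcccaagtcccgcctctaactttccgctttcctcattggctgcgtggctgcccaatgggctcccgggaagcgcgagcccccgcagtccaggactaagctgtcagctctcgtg
Ucp3: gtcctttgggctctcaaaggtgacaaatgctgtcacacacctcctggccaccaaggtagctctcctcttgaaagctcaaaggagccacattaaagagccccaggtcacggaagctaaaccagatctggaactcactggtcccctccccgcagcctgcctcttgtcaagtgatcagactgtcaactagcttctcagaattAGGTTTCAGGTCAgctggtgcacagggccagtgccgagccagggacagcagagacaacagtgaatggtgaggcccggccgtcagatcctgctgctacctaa
A match of letters is a description of the window and not a binding site.

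Both uptake genes were higher in heart. Fabp3 encodes the heart-type fatty acid binding protein, which carries fatty acids through the cytosol. Its signals were 53146 to 66067 (median 58294) in heart and 17142 to 23310 (median 21061) in skeletal muscle, a log2 difference of 1.51 (95% confidence interval 1.35 to 1.67, adjusted p = 1.09e-10). The heart values came near the highest normalised signal of the arrays, 68730 (that of Pvalb in skeletal muscle). Cd36 encodes the fatty acid translocase of the plasma membrane. Its dim probe gave 361 to 475 (median 395) in heart and 248 to 291 (median 278) in skeletal muscle, a log2 difference of 0.55 (95% confidence interval 0.42 to 0.69, adjusted p = 4.57e-06), and the arrays of the tissues did not overlap for either gene.

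The acyl-CoA synthetases, which attach coenzyme A to the incoming fatty acid, did not share a direction. Acsl4, which prefers arachidonic acid, was lower in heart, with signals of 414 to 477 (median 440.2) in heart and 642 to 836 (median 738) in skeletal muscle, a log2 difference of -0.72 (95% confidence interval -0.86 to -0.59, adjusted p = 1.73e-07). No array of heart reached the lowest array of skeletal muscle, and a second probe of Acsl4 was lower too (-0.35), while its other 3 probes, all dim, lay between -0.11 and 0.025. Acsl6, best known from brain, gave 279.7 to 299 (median 292) in heart and 349 to 418 (median 393) in skeletal muscle, a log2 difference of -0.43 (95% confidence interval -0.54 to -0.31, adjusted p = 1.03e-05), but its second probe, also dim, showed a difference of 0.0131. Acsl5 was higher in heart, with signals of 485 to 709 (median 674) in heart and 438 to 501 (median 476) in skeletal muscle, a log2 difference of 0.41 (95% confidence interval 0.23 to 0.59, adjusted p = 0.00227). Its arrays overlapped, its call was lost on the control diet alone (0.35) and when arrays were scaled to one median (0.38), and its dim second probe gave 0.12. Acsl3, at 191 to 239 (median 225) in heart and 186 to 255 (median 221) in skeletal muscle, did not pass (log2 -0.016, 95% confidence interval -0.17 to 0.14).

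At the carnitine step, Cpt2, Cpt1b and Mlycd were higher in heart, and Cpt1a and Crat did not pass. Cpt2, the inner-membrane carnitine palmitoyltransferase, gave 5915 to 7305 (median 6594) in heart and 2646 to 2867 (median 2702) in skeletal muscle, a log2 difference of 1.27 (95% confidence interval 1.16 to 1.39, adjusted p = 1.14e-11), and its second probe agreed at 1.20. Cpt1b is the muscle form of the outer-membrane enzyme that controls entry into the mitochondrion. Its signals were 7009.6 to 8627 (median 7262) in heart and 4981 to 5594 (median 5238) in skeletal muscle, a log2 difference of 0.52 (95% confidence interval 0.40 to 0.65, adjusted p = 4.12e-06). The second Cpt1b probe gave 0.79, and the call on the first was lost only when arrays were scaled to one median (0.33). Mlycd encodes malonyl-CoA decarboxylase, which removes the inhibitor of that enzyme. Its range was 2254 to 2991 (median 2714) in heart and 1786 to 2273 (median 1908) in skeletal muscle, a log2 difference of 0.43 (95% confidence interval 0.32 to 0.54, adjusted p = 6.98e-06), and 1 high-iron skeletal muscle array, at 2273, lay above the lowest heart array, at 2254. Scaling to one median also took this call away (0.25). Cpt1a, the liver form, was dim in both tissues and differed by -0.11 (95% confidence interval -0.23 to 0.0108). Crat, which makes acetylcarnitine, gave a clear signal in both tissues, 1611 to 1899 (median 1693) in heart and 1678 to 1832 (median 1738) in skeletal muscle, and differed by -0.0344 (95% confidence interval -0.14 to 0.0673). It was the only member above the dim limit that did not pass, and its dim second probe was lower in heart (-0.20, adjusted p = 0.0335).

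All 4 acyl-CoA dehydrogenases, which open each turn of the spiral and differ in the chain length they prefer, were higher in heart with no overlap between arrays. Acadm, the medium-chain enzyme, had the largest difference of all members, with 4349.6 to 5869.5 (median 4609) in heart and 1033 to 1781 (median 1388) in skeletal muscle, a log2 difference of 1.81 (95% confidence interval 1.57 to 2.05, adjusted p = 2.13e-09). Its second probe was also higher, by 0.96. Acadvl, which takes very long chains and sits on the inner membrane, gave 9279 to 15151 (median 11216) in heart and 5030.5 to 5973 (median 5469.5) in skeletal muscle, a log2 difference of 1.09 (95% confidence interval 0.88 to 1.30, adjusted p = 2.55e-07). Its highest heart values, 15151 and 14020, were those of control replicate 2 and high-iron replicate 1. Acadl, the long-chain enzyme, was at 578 to 739 (median 599.6) in heart and 408 to 482 (median 436) in skeletal muscle, a log2 difference of 0.53 (95% confidence interval 0.41 to 0.65, adjusted p = 2.28e-06), and its second probe at 0.86. Acads, the short-chain enzyme, differed by 0.49 (95% confidence interval 0.32 to 0.67).

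Of the 5 genes of the later steps, 4 were higher in heart. Acaa2 encodes the mitochondrial ketoacyl-CoA thiolase that releases acetyl-CoA. Its signals were 17539 to 25101 (median 19718) in heart and 5134 to 6783 (median 6394) in skeletal muscle, a log2 difference of 1.71 (95% confidence interval 1.54 to 1.89, adjusted p = 7.32e-11), and both further probes were higher too, by 1.99 and 1.81. Hadhb, the thiolase subunit of the trifunctional protein, gave 18788 to 27791 (median 21443) in heart and 7628 to 8802 (median 8719) in skeletal muscle, a log2 difference of 1.39 (95% confidence interval 1.21 to 1.56, adjusted p = 8.32e-10), with 1.47 on its second probe. Its partner subunit Hadha was represented only by dim probes and differed by -0.0265 (95% confidence interval -0.16 to 0.10), so the 2 subunits of one protein could not be compared. Echs1, the short-chain enoyl-CoA hydratase, gave 1811 to 2289.6 (median 1989.6) in heart and 871 to 991 (median 912) in skeletal muscle, a log2 difference of 1.14 (95% confidence interval 1.02 to 1.26, adjusted p = 1.72e-10). A dim second probe of Echs1 differed by -0.0841. Hadh, the short-chain hydroxyacyl-CoA dehydrogenase, was higher by 0.77 (95% confidence interval 0.60 to 0.95), and its dim second probe did not pass (0.15, adjusted p = 0.0988).

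The enzymes that prepare unsaturated acyl chains for the spiral followed. Eci1, an enoyl-CoA isomerase that moves double bonds, gave 5884 to 7705 (median 6921) in heart and 3146 to 3642 (median 3426) in skeletal muscle, a log2 difference of 1.00 (95% confidence interval 0.87 to 1.13, adjusted p = 1.17e-09). Decr1, the dienoyl-CoA reductase, gave 1366 to 1666 (median 1462) in heart and 749 to 973 (median 784) in skeletal muscle, a log2 difference of 0.88 (95% confidence interval 0.75 to 1.02, adjusted p = 9.19e-09). Neither gene overlapped between tissues. The second isomerase, Eci2, was dim and differed by 0.12 with an adjusted p of 0.173, and it passed in 1 of 25 settings.

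The 3 genes that hand electrons from the dehydrogenases to the respiratory chain were among the members with the largest differences. Etfdh, the membrane oxidoreductase that passes electrons to ubiquinone, was at 3550.4 to 4453 (median 3852) in heart and 904 to 1408 (median 1156) in skeletal muscle, a log2 difference of 1.75 (95% confidence interval 1.55 to 1.95, adjusted p = 2.57e-10). Its 2 other probes were dim and differed by 0.033 and 0.039. Etfb and Etfa encode the subunits of the electron transfer flavoprotein. Etfb gave 8522 to 11678 (median 8754) in heart and 3103 to 3616 (median 3402) in skeletal muscle, a log2 difference of 1.49 (95% confidence interval 1.33 to 1.66, adjusted p = 2.54e-10). Etfa gave 11464 to 14162 (median 12294) in heart and 5197 to 6064 (median 5893) in skeletal muscle, a log2 difference of 1.12 (95% confidence interval 0.99 to 1.24, adjusted p = 2.89e-10), and its further probes 1.38 and 1.48.

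Thioesterases, which split acyl-CoA back into fatty acid and coenzyme A, were less uniform. Acot13 was higher in heart, with signals of 1686 to 2348 (median 1963) in heart and 964 to 1223 (median 1105) in skeletal muscle, a log2 difference of 0.83 (95% confidence interval 0.66 to 1.01, adjusted p = 7.82e-07). Acot2, the mitochondrial form, was dim, with 0.38 (adjusted p = 0.000265) on one probe and -0.0625 on the other. Acot1, the cytosolic form, was dim and did not pass (0.0427). Of the peroxisomal enzymes, the thiolase Acaa1a gave 2892 to 3571 (median 2925) in heart and 1745 to 1919.7 (median 1805) in skeletal muscle, a log2 difference of 0.77 (95% confidence interval 0.64 to 0.90, adjusted p = 3.71e-08). Ehhadh, the bifunctional enzyme, gave 378 to 512 (median 462) in heart and 372 to 391 (median 385) in skeletal muscle, a log2 difference of 0.23 (95% confidence interval 0.13 to 0.33, adjusted p = 0.00242). The tissues overlapped for Ehhadh, and its difference was 0.0818 on the control diet alone, where it did not pass.

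The regulators moved in both directions. Ppargc1a, which encodes PGC-1alpha, gave 891 to 1356 (median 1074) in heart and 657 to 714 (median 685) in skeletal muscle, a log2 difference of 0.67 (95% confidence interval 0.49 to 0.85, adjusted p = 1.71e-05). Its highest heart values, 1356 and 1311, were again those of control replicate 2 and high-iron replicate 1, and its dim second probe differed by -0.0021. Ppara, the receptor best known for control of fatty acid oxidation, was dim at 251 to 373 (median 283) in heart and 214 to 243 (median 229) in skeletal muscle, a log2 difference of 0.36 (95% confidence interval 0.22 to 0.49, adjusted p = 0.000465), and did not pass on the high-iron diet alone (0.20). Ppard, the PPAR form found in most tissues, was lower in heart, with signals of 401 to 589 (median 544) in heart and 586 to 709 (median 652) in skeletal muscle, a log2 difference of -0.33 (95% confidence interval -0.51 to -0.14, adjusted p = 0.0139). The tissues overlapped for Ppard, and its call was lost on either diet alone (-0.36 and -0.29), with arrays scaled to one median (-0.35) and without skeletal muscle high-iron replicate 1 (-0.28). Its dim second probe differed by -0.0137 and did not pass either. Ucp3, the uncoupling protein of skeletal muscle, was dim in both tissues, at 288 to 342 (median 308) in heart and 257 to 400 (median 295) in skeletal muscle (0.0157, 95% confidence interval -0.16 to 0.19).

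**Figure D2:**
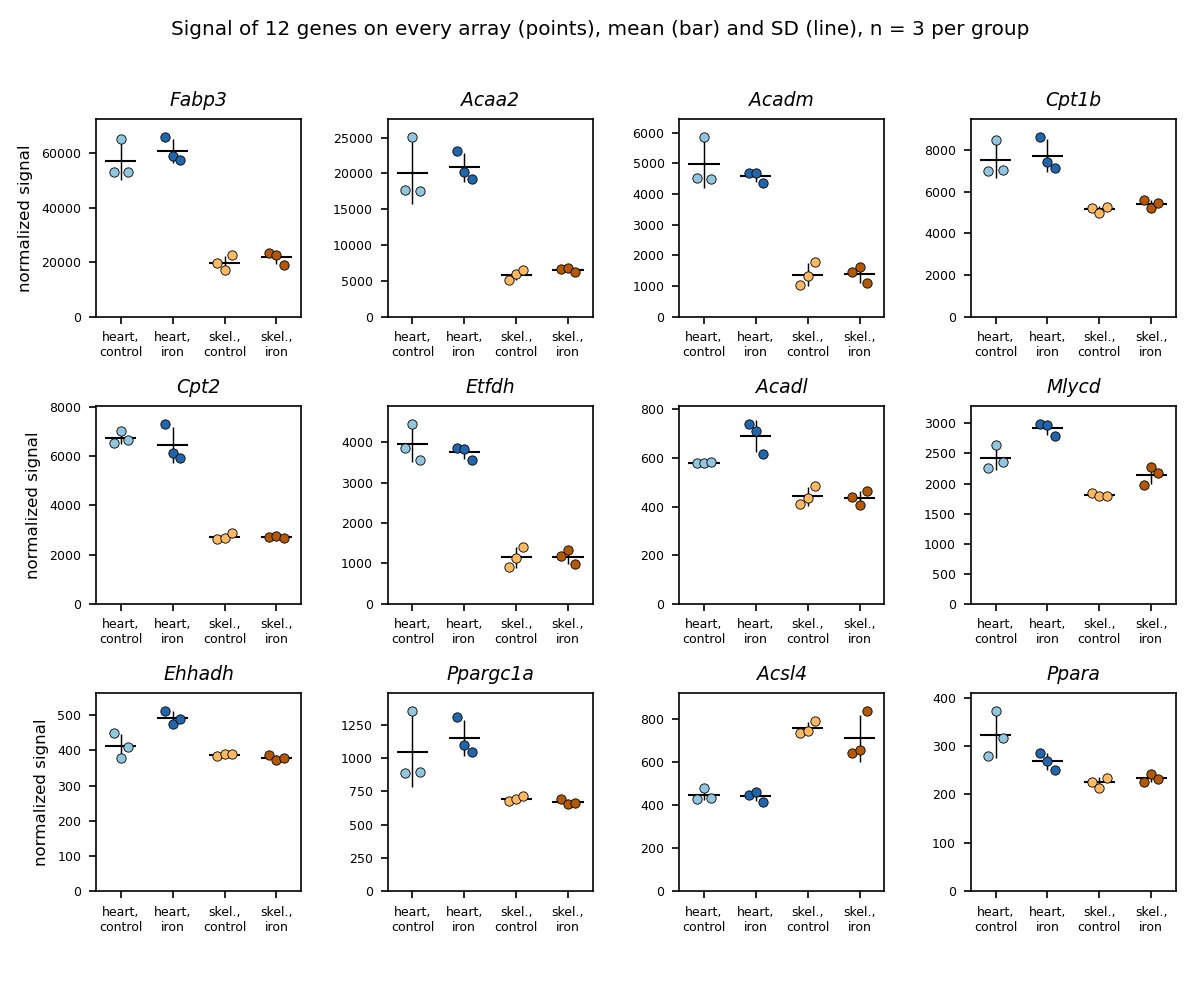
Normalised signal (y axis, linear from 0, with its own scale for each gene) on every array for 12 of the genes, with the mean (bar) and SD (vertical line) of the 3 mice in each group. Fabp3, Acaa2, Acadm, Cpt2 and Etfdh separate by tissue, Acsl4 separates the other way, and Mlycd lies higher with added iron in heart as well as skeletal muscle.

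Counted over 25 settings (the reported one, the alternatives that keep the same probe and the omission of each array in turn), 19 members were higher in heart in every setting, 2 were lower in every setting (Acsl4 and Acsl6), 8 passed in some settings only and 6 in none. A second probe existed for 20 members. Of the 16 of these called on the brightest probe, 8 were called in the same direction on the second (Acsl4, Cpt1b, Cpt2, Acadm, Acadl, Hadhb, Acaa2 and Etfa). The other 8 were not called on it (Acsl5, Acsl6, Hadh, Echs1, Etfdh, Acot2, Ppard and Ppargc1a), and all 8 of those second probes were dim. Crat was called on its second probe alone. With these probes in place and the other 15 members unchanged, 21 members passed, 19 higher and 2 lower (Acsl4 and Crat).

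Other mitochondrial genes were also higher in heart. Of 20 respiratory chain genes, 16 were higher and none lower, with a median log2 difference of 0.486. Of 14 measured genes of the tricarboxylic acid cycle, 8 were higher and 2 lower (Idh3a -0.37 and Sucla2 -0.26), with a median of 0.298. After subtraction of the respiratory chain median, the median of the 35 oxidation genes was 0.0412, with 20 members above the chain's median and 15 below it. The largest differences of the members, those of Acadm, Etfdh, Acaa2 and Fabp3, were 1.51 to 1.81. They exceeded the highest difference of any respiratory chain gene measured, 0.92 for Atp5c1. So did those of Etfb, Hadhb, Cpt2, Echs1, Etfa, Acadvl and Eci1. The highest difference of a measured cycle gene was larger, at 1.45. Etfb (1.49) exceeded that too, while Hadhb, Cpt2, Echs1, Etfa, Acadvl and Eci1 (1.00 to 1.39) did not. Of 30 measured further genes of fatty acid handling, 18 of them dim, 7 were higher and none lower (median 0.0648), among them Hsd17b10 (1.23), Acot7 (1.19) and Scp2 (0.96). Of 16 measured partners and targets of PPAR and PGC-1, 8 were higher and none lower (median 0.36), led by Lpl, lipoprotein lipase (2.20), and Esrrb, an oestrogen-related receptor (1.13).

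**Figure D3:**
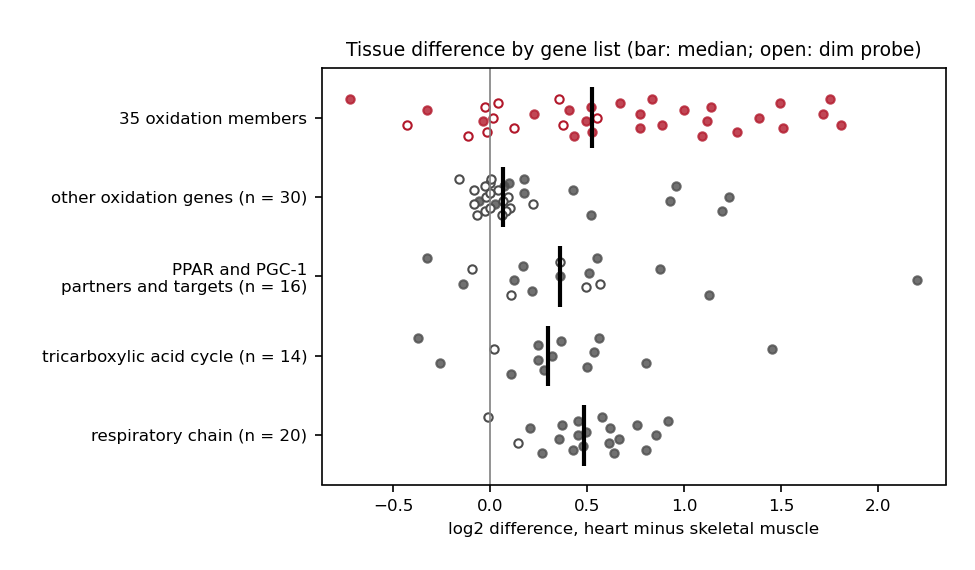
Log2 difference between heart and skeletal muscle (x axis) of each measured gene in 5 lists (y axis), with the list median as a bar and dim probes as open circles. The medians are 0.527 for the 35 oxidation genes, 0.0648, 0.36, 0.298 and 0.486 for the others from top to bottom.

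The high-iron diet moved no oxidation gene past the threshold in heart. The adjusted p was 1 for every one of the 35 members, and 0% of all probes passed (smallest adjusted p of any probe 0.287). The members' median diet difference was 0.0365, beside 0.000642 for all probes, and all 95% confidence intervals lay between -0.49 and 0.51. At an unadjusted p under 0.05 there were 5 members, 3 higher and 2 lower, where 2.56% of all probes and 5.09% of the 6584 brighter ones reached that level. High-iron and control arrays had no overlap for 4 members, 3 higher and 1 lower, beside 7.79% of all probes and 5.71% of the brighter ones.

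Mlycd had the smallest p of the members in heart. It read 2254, 2641 and 2356 on the control diet and 2991, 2979 and 2786 on the high-iron diet. Every high-iron array was above every control array, and the log2 difference was 0.27 (standard error 0.0814, 95% confidence interval 0.0929 to 0.46, adjusted p = 1). Ehhadh, the peroxisomal bifunctional enzyme, read 449, 378 and 409 on control and 512, 474 and 489.5 on high-iron arrays. These did not overlap either, with a difference of 0.26 (95% confidence interval 0.0757 to 0.44, adjusted p = 1). Acadl, the long-chain dehydrogenase, read 579.8, 578 and 584 on control and 739, 711 and 615 on high-iron arrays, a difference of 0.24 (adjusted p = 1). Its second probe, of nearly the same mean brightness, pointed the other way at -0.23.

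Acads, the short-chain dehydrogenase, was lower on all 3 high-iron arrays, at 519, 584 and 518 against 609, 694 and 589.5. The difference was -0.22 (95% confidence interval -0.42 to -0.026, adjusted p = 1). Ppara, on its dim probe, read 279, 373 and 316 on control and 286, 269 and 251 on high-iron arrays, which overlapped, with a difference of -0.26 (adjusted p = 1). For the carnitine palmitoyltransferases the diet difference was 0.0401 for Cpt1b (95% confidence interval -0.19 to 0.27) and -0.0694 for Cpt2 (-0.27 to 0.13).

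Without the 2 heart arrays that stood apart, which leaves 2 mice per diet, the count of members past the threshold was again 0 (smallest adjusted p 0.516), while 28 of all probes passed and 4.73% reached an unadjusted p under 0.05. The 5 members at that level were then Mlycd (0.32), Ppargc1a (0.26), Acadvl (0.23), Eci1 (0.21) and Ppara (-0.19). Mlycd and Ppara thus stood in both sets, and Ehhadh, Acadl and Acads at 0.17, 0.18 and -0.12 did not.

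**Figure D4:**
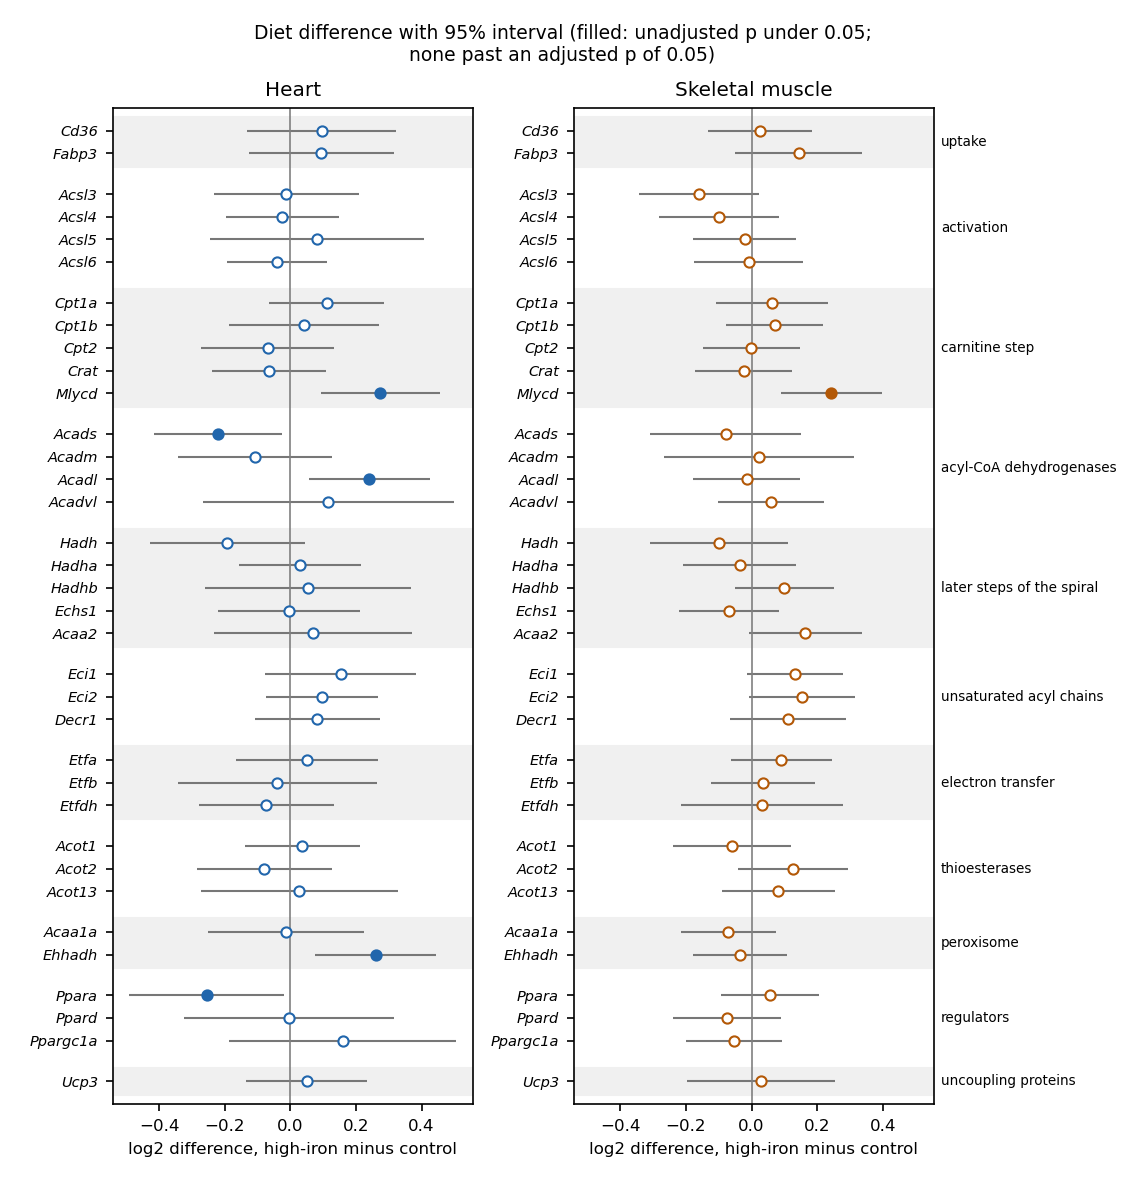
Log2 difference between the high-iron and the control diet (x axis) in heart (left) and skeletal muscle (right) for the 35 genes, with 95% confidence intervals. Filled points had an unadjusted p under 0.05 and none passed after adjustment, and Mlycd is filled in both panels, at 0.27 and 0.24.

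In skeletal muscle the diet moved no oxidation gene past the threshold either. Of all probes 0.0997% (46) passed, none of them a member's brightest probe, and the smallest adjusted p among the members was 0.556 (limma). The median diet difference was 0.0269 beside -0.000174 for all probes, and all 95% confidence intervals lay between -0.34 and 0.40. Mlycd was the one member at an unadjusted p under 0.05, a level that 5.12% of all probes and 11.8% of the brighter ones reached. The diets did not overlap for 4 members (Mlycd, Hadhb and Eci1 higher and Acaa1a lower), beside 10.2% of all probes and 16.6% of the brighter ones. All 4 lay above the dim limit, where 25 members were measured.

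Mlycd read 1839.7, 1788 and 1786 on control and 1976, 2273 and 2169.6 on high-iron arrays, a log2 difference of 0.24 (standard error 0.0738, 95% confidence interval 0.0902 to 0.40, adjusted p = 0.556). As in heart, the lowest high-iron array lay above the highest control array. Acaa2, the mitochondrial thiolase, read 5134, 5962 and 6525 against 6615, 6783 and 6263 on the high-iron diet, a difference of 0.16 (adjusted p = 0.987) with overlapping arrays, and -0.0745 on its second probe. The isomerase Eci1 read 3207, 3146 and 3380.3 on control and 3642, 3471 and 3558 on high-iron arrays, which did not overlap (0.13, adjusted p = 0.995). Both remaining genes of smallest p were dim. Eci2 read 288, 297 and 346 and 352, 348 and 334 (0.15, 95% confidence interval -0.00806 to 0.32). Acsl3, an acyl-CoA synthetase, read 206, 241 and 255 and 232, 186 and 209 (-0.16, 95% confidence interval -0.34 to 0.0231).

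Whether the diet acted differently in the tissues was tested by the interaction of diet and tissue. No probe passed (0% of all probes), and 3.35% of all probes and 3 members had an unadjusted p under 0.05. For Ehhadh the heart difference exceeded that of skeletal muscle by 0.29 (95% confidence interval 0.0904 to 0.50, adjusted p = 1), and its skeletal muscle signals were 384, 390.1 and 391 on control and 387, 372 and 378 on high-iron arrays. For Ppara the term was -0.31 (adjusted p = 1), with skeletal muscle signals of 226, 214 and 234 and 226, 243 and 232. For Acadl it was 0.26 (adjusted p = 1), with 409, 433 and 482 and 438, 408 and 464, and -0.29 on its second probe. For Mlycd, whose high-iron arrays were higher in each tissue, it was 0.031 (95% confidence interval -0.19 to 0.25).

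On the 2 heart arrays that stood apart, the medians of the oxidation genes and of other mitochondrial genes lay above the heart mean. Of the 35 members, 13 were at their highest on control replicate 2 and 8 at their lowest there, and 10 were at their highest and 2 at their lowest on high-iron replicate 1, with median deviations from the heart mean of 0.0967 and 0.133. The 20 respiratory chain genes deviated there by 0.273 and 0.24, with 0 at their lowest on either array. On the other 4 heart arrays the median deviation of the members lay between -0.0663 and 0.0154. In skeletal muscle it lay between -0.0623 and 0.0645, and on 4 of the 6 arrays the medians of the oxidation, cycle and chain genes did not share a sign. The brown adipocyte markers given above were highest on the first of these arrays and the atrial and seminal vesicle markers on the other, and their part in these deviations was not tested.

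**Figure D5:**
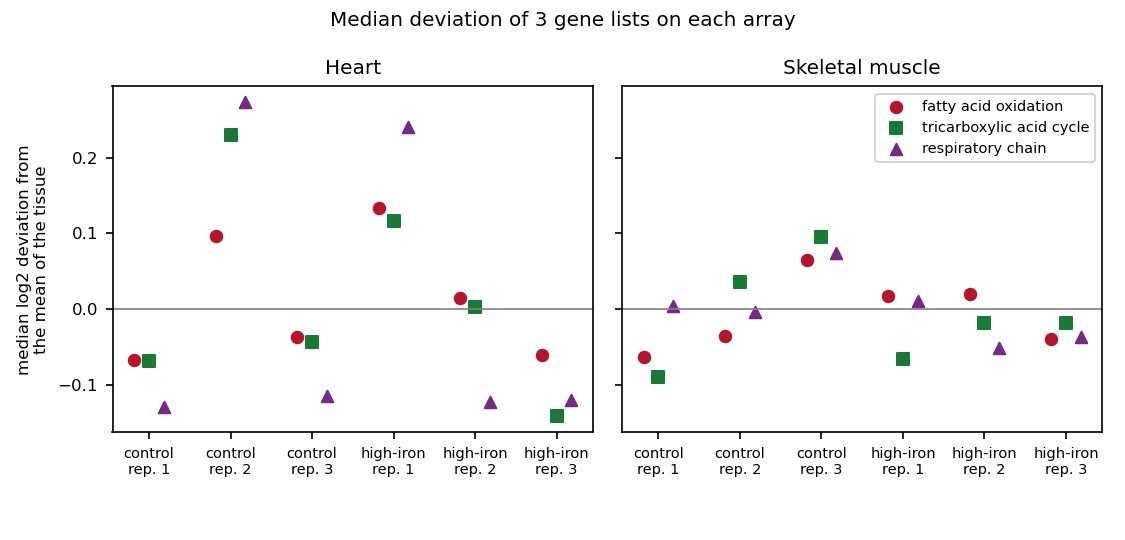
Median log2 deviation from the mean of the tissue (y axis) of the oxidation, tricarboxylic acid cycle and respiratory chain genes on each array (x axis), for heart (left) and skeletal muscle (right). All 3 lists lie above 0 for heart control replicate 2 and for high-iron replicate 1.

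Among related genes the diet moved none past the threshold either. This held in both tissues for the 30 further genes of fatty acid handling, the 16 partners and targets of PPAR and PGC-1, the 14 cycle genes and the 20 respiratory chain genes. Those of smallest p were Angptl4, which inhibits lipoprotein lipase, at 1.63 in heart and 0.43 in skeletal muscle (adjusted p = 0.857 and 0.299, limma), and Pdk4, the kinase that switches off pyruvate dehydrogenase, at 1.30 and 0.54 (adjusted p = 0.867 and 0.155). Both are known targets of PPAR receptors. The heart values used all heart arrays and are not given without the pair that stood apart. The study's paper reports both genes as raised by iron in both tissues, from a fold-change cutoff and quantitative PCR. Its array values for both genes in heart came from fewer arrays than used here. The paper left out probes that failed to hybridise on a control and a high-iron heart array. The heart values here leave out no array for either gene, so readings that the paper excluded may be among them.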

How the data were processed

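Total RNA of heart and extensor digitorum longus (12 samples, 4 groups of 3 mice) was measured on Illumina Sentrix Mouse-6 BeadChips. Per array, the authors deposited BeadStudio signal intensities that had not been normalised. The deposited series table holds intensities that the authors quantile normalised and served as an alternative only. No genome build or detection p-value of the files was used. The signals of 46133 probes were quantile normalised over the 12 arrays and taken to log2 with no offset (R 4.3.3, limma 3.58.1, lmFit and eBayes, two-sided, Benjamini-Hochberg over all probes, threshold 0.05). Diets were compared within each tissue (6 arrays), and tissue and interaction over 12 arrays with mouse as a random effect (duplicateCorrelation, 0.0717). A heart and a muscle sample that share diet and replicate number were taken as 1 mouse, since the study's design lists both tissues for each replicate, although the labels do not state that equal numbers mark the same mouse. The number of arrays limits the precision, and p-values measure the spread between mice of 1 experiment. Of the probes, 29542 carried 1 symbol in the platform annotation, 11 several and 16580 none. The members, related lists, marker lists and the dim limit were chosen with earlier results of these data known. Named with their arrays are the members past the threshold or, where fewer than 5 passed, the 5 of smallest p for the diets and the 3 for the interaction, and up to 3 of each role group for the tissues. Alternatives changed the normalisation, background correction, offset, filter, prior, array weights, blocks, probe and arrays used. The scripts were tested on simulated data. Promoter windows came from RefSeq (GRCm38.p6).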

Additional observations from a re-analysis of the deposited data

How the results depend on the processing

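The count of members past the threshold kept its side under every alternative run, at 0 for the diet in heart, the diet in skeletal muscle and the interaction. For the tissue difference it was 21 to 28 over the alternatives and 27 to 29 when each array was left out in turn, against 28. The members' median tissue difference was 0.731 with normexp background correction, 0.356 on second probes, 0.587 on the high-iron diet alone and 0.506 to 0.568 with an array left out. On the second brightest probe the direction turned for the diet difference of Acadl in heart (-0.23), that of Acaa2 in skeletal muscle (-0.0745), the tissue difference of Acsl6 (0.0131), Echs1 (-0.0841), Acot2 (-0.0625) and Ppargc1a (-0.0021), and the interaction of Acadl (-0.29). The cause was not tested. Among single genes, the tissue call was also lost for Acot2 on the high-iron diet alone (0.27). The count over all probes moved more. In heart it was 0, and 2 with a trended and robust prior, 5 in a single fit over all 4 groups, 28 without the 2 heart arrays and 1 without control replicate 1 or control replicate 2. In skeletal muscle it was 46, and 0 with arrays scaled to one median or with normexp, 74 with an offset of 50, 2 in the single fit and 27 to 65 with an array left out, lowest without high-iron replicate 1. For the interaction it was 0, and 8 without the 2 heart arrays and 1 with a trended prior or without heart high-iron replicate 3.

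The labels do not say that replicate numbers pair the diets. Array medians before normalisation followed the number in all 4 groups, while the correlations of same-numbered deviations after it were -0.46, -0.544 and 0.488 in heart and 0.0989, 0.0217 and 0.0217 in skeletal muscle. With the replicate block, 0 members passed in heart and 0 in skeletal muscle, and 77 of all probes passed in skeletal muscle instead of 46. With the mouse as a fixed replicate block, the tissue difference again gave 28 members. Between heart and muscle samples taken as 1 mouse, the deviations from the group means correlated at 0.0262 to 0.0998. The chip of each array is not given in the labels, so chip could not be entered as a block. Signals near those of silent genes limit what can be said of the 10 dim members, and 3 mice per diet limit the diet comparisons.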

Other observations

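Acacb, the muscle acetyl-CoA carboxylase that makes malonyl-CoA, and so the counterpart of Mlycd, was chosen after its values were seen. Its signals in heart were 2851, 329 and 2896 on the control diet and 1927, 2699 and 3071 on the high-iron diet. The low value belongs to control replicate 2, the array on which the brown adipocyte markers were highest. The study's methods also mention probes that failed to hybridise on a control heart array and were left out. They give neither the replicate nor the names of these probes. The cause of the low value was not tested.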
